A study of Mus musculus with 12 samples.

Results

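The genes described here are targets of p53, the transcription factor encoded by Trp53 that is stabilised when DNA is damaged or a cell is otherwise stressed. The list names 32 genes, chosen by name as known p53 targets together with Trp53 itself, with earlier results of these data known. Of these, 29 were measured among 22180 genes, each by 1 probe set. Trp53 and Gdf15 were not analysed here, and Ddb2 was not used because its probe set also carries the name of another gene. They were measured with Affymetrix arrays in cultures of keratinocytes, the epithelial cells of the epidermis, from mice. Both Atg7 alleles were flanked by recombination sites in every culture. The KO cells also carried Cre under the promoter of K14, a keratin gene of basal keratinocytes, and were autophagy deficient, while the wt cells had no Cre and were autophagy competent. All were grown in KGM-2 medium and treated before they were confluent. Each genotype received 20 µM paraquat, a redox-cycling herbicide that makes cells produce superoxide, or a sham treatment, and RNA was taken after 48 h. The 4 groups were KO paraquat, KO sham, wt paraquat and wt sham, with 3 arrays each.

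The study design calls the arrays biological triplicates, but the labels do not tie them to animals, so p-values measure only the spread between these samples, which may be technical. Atg7, the enzyme that conjugates the ubiquitin-like proteins of the autophagosome, had signals of 129, 148 and 96 in KO paraquat and 105, 111 and 103 in KO sham, against 442, 442 and 457 in wt paraquat and 293, 356 and 286 in wt sham. All KO arrays lay below all wt arrays, the direction the labels give. The 7 measured keratinocyte markers summed to signals of 47527 to 53881 in every array. The sample called wt sham 2 stood apart in 15 cell division genes, with a mean log2 signal of 6.72, where wt sham 1 and 3 had 8.03 and 7.67. KO paraquat 3 had 7.30, where KO paraquat 1 and 2 had 6.92 and 6.89. In whole cultures, fewer cells that express a gene and less RNA per cell cannot be told apart.

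When p53 is active it binds a pair of half-sites in DNA and raises transcription of genes that hold the cell cycle, repair DNA, change metabolism or prepare cell death. Among these targets are its own inhibitors, so that p53 activity is limited by feedback. Skin cells use the pathway in the response to ultraviolet light and other genotoxic agents, and the related factor p63, which maintains basal keratinocytes, shares some of its targets.

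Promoters are shown for the 4 members with the largest rise under paraquat in both genotypes, Mdm2, Ddit4l, Cd80 and Dcxr, taken as the smaller of the KO and wt log2 changes. The windows run from 250 bases before to 50 bases after a transcription start in RefSeq (mouse build GRCm38.p6) and are printed 5′ to 3′ on the gene's strand, with a p53 half-site in capitals. The windows lie at chr10:117710709-117711008 (minus strand) for Mdm2, chr3:137623422-137623721 (plus strand) for Ddit4l, chr16:38458683-38458982 (plus strand) for Cd80 and chr11:120727235-120727534 (minus strand) for Dcxr. The Cd80 window belongs to a start inside the gene, which begins at 38457430.
Mdm2: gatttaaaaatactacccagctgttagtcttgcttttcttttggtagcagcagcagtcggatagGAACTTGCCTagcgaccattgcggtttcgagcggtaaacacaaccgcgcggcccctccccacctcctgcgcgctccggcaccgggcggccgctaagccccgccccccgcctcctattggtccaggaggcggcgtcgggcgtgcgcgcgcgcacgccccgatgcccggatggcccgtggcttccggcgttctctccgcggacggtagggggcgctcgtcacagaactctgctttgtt
Ddit4l: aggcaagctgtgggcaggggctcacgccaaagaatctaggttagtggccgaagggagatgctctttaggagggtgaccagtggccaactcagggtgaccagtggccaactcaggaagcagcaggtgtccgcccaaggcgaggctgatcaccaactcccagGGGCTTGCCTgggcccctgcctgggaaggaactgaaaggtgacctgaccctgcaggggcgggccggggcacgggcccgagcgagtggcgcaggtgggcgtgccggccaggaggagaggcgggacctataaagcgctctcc
Cd80: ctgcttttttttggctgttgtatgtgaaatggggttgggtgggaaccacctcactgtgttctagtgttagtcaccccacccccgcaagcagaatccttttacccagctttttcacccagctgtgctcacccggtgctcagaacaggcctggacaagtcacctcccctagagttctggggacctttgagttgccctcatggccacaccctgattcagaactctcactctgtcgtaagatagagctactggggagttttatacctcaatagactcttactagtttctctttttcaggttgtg
Dcxr: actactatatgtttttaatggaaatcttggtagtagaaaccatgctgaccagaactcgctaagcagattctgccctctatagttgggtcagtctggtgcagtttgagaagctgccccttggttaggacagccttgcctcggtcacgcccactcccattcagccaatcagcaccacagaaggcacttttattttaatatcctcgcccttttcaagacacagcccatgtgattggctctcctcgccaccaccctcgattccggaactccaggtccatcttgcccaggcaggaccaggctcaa
The Mdm2 and Ddit4l windows each held 1 match to the p53 half-site consensus, GAACTTGCCT and GGGCTTGCCT, and the Cd80 and Dcxr windows held none. The p53-responsive promoter of Mdm2 that is known from earlier work lies in its first intron, outside this window.

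The half-site was searched on both strands in the windows of the 23 measured members that have one in the RefSeq table. It occurred in 9 of the 23 (39.1%), against 9.55% of 27025 genes with a window. The 9 were Mdm2, Ppm1d, Ccng1, Ckap2, Aen, Ei24, Polk, Sesn1 and Ddit4l. The matching windows of Sesn1 (41887189 to 41887488) and Polk (96519138 to 96519437) belong to starts inside the genes. Sesn1 runs from 41810574 to 41908436 and Polk, on the minus strand, from 96480687 to 96542579. The match in Ckap2 was AGACATGTCC at position -203 from the start, and that in Ei24 was GGGCATGCCC at -10. A full site, with 2 half-sites 0 to 13 bases apart, was in 0 of the 23 windows and in 0.074% of all genes. CATG, any 6 bases and CATG again, the core of an unbroken full site with which it can overlap, was also in 0 of 23, against 0.833% of all genes. A match describes letters only, and its absence covers only these 300 bases.

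Paraquat raised most p53 targets in both genotypes. In KO cells 23 of the 29 members rose and 1, Ckap2, fell, while 27.1% of all genes were called, 14.5% higher and 12.6% lower. In wt cells 21 rose and 1, Xpc, fell, with 29.2% of all genes called, 14.9% higher and 14.3% lower. A gene was called where limma's adjusted p was under 0.05. The median log2 change of the members was 0.68 in KO and 0.70 in wt, against 0.01 over all genes in either genotype. The 19 members that rose in both genotypes were 65.5% of the 29, 82.6% of those that rose in KO and 90.5% of those that rose in wt. Over all genes 10.5% rose in both, which is 72.4% of the KO list and 70.3% of the wt list.

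Some markers of cell types other than keratinocytes moved with paraquat as well. The 8 melanocyte markers summed to 921 to 966 in KO paraquat against 481 to 532 in KO sham, and to 930 to 1013 in wt paraquat against 427 to 505 in wt sham. In each genotype 4 of the 8 rose. The 7 keratinocyte markers summed to 47788 to 50463 in KO paraquat against 50598 to 52428 in KO sham, and to 47527 to 47810 in wt paraquat against 51892 to 53881 in wt sham. Of these 7 keratinocyte markers 1 rose and 3 fell in each genotype. Of 7 fibroblast markers 1 rose in each genotype, and of 5 endothelial markers 2 rose in KO and 3 in wt. Of all genes 14.5% rose and 12.6% fell in KO, and 14.9% rose and 14.3% fell in wt. On average the fibroblast markers, and the endothelial markers in sham, were dim, near the array medians of 42 to 45 per probe set. The 7 fibroblast markers summed to 257 to 388 over all arrays. The 5 endothelial markers summed to 294 to 335 in KO paraquat against 191 to 208 in KO sham, and to 363 to 443 in wt paraquat against 172 to 192 in wt sham. No marker was at 0, since the lowest signal of any probe set was 3. The part of these cells in the members' changes was not tested.

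**Figure D1:**
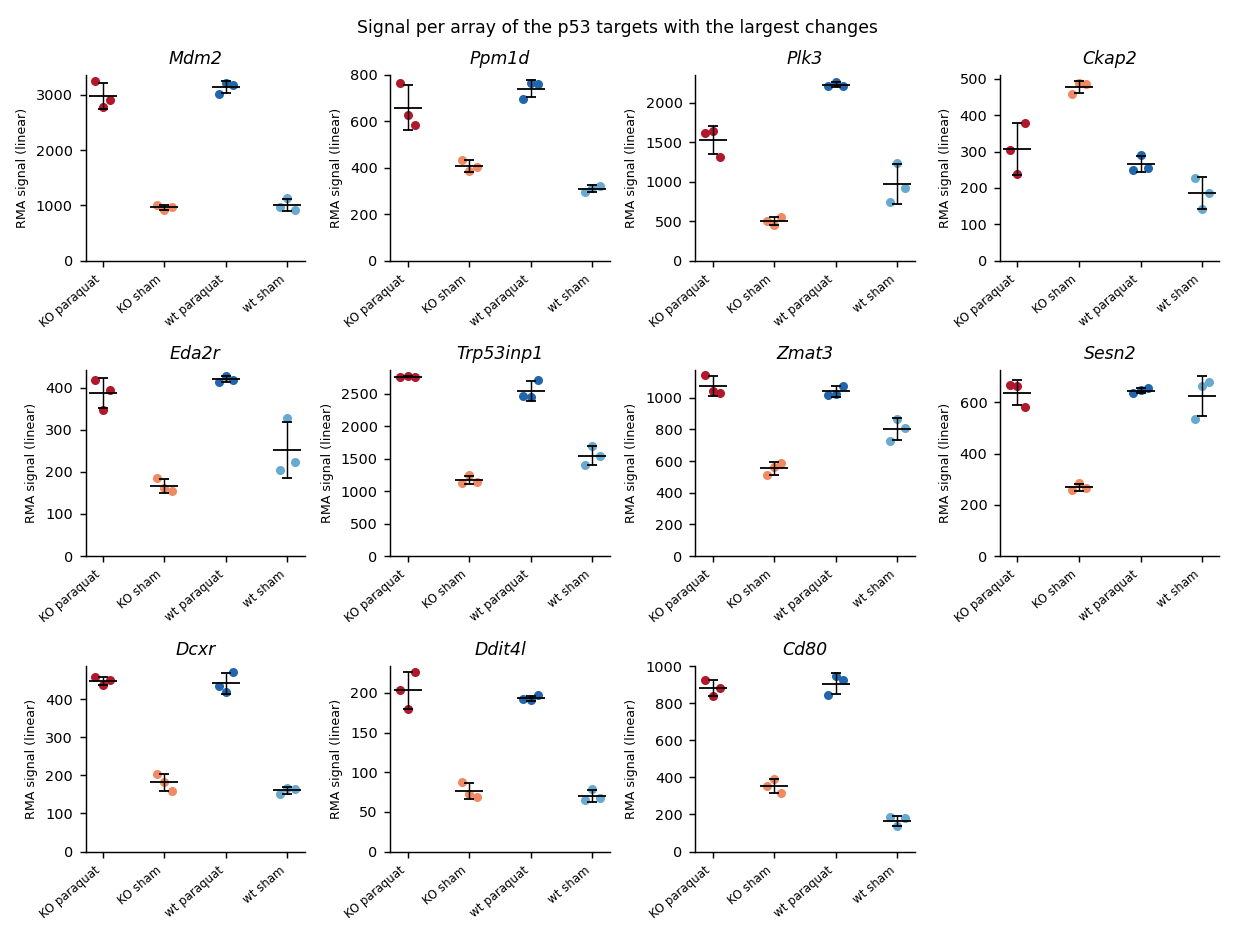
Signal of p53 target genes (y axes, linear scale from 0) in each array, by group (x axes); points are arrays and the bar is the mean ± SD of 3 arrays. Mdm2 lies between 2777 and 3246 in the paraquat arrays and between 919 and 1128 in the sham arrays, while Sesn2 is low in KO sham alone, between 256 and 284.

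The 3 members that limit p53 all rose in both genotypes. Mdm2, the ubiquitin ligase that sends p53 for degradation, had signals of 3246, 2777 and 2908 in KO paraquat against 1006, 920 and 968 in KO sham, and of 3015, 3220 and 3183 in wt paraquat against 972, 1128 and 919 in wt sham. Every paraquat array was above every sham array, and the genotypes overlapped. The rise was 3.08-fold in KO (log2 1.62 ± 0.09, SE, adjusted p = 1.26e-07) and 3.13-fold in wt (1.65 ± 0.09, adjusted p = 3.41e-08). The difference between those responses was -0.02 ± 0.13 (adjusted p = 0.961). Mdm2 had the largest rise of any member in KO and the second largest in wt, after Cd80.

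Ppm1d encodes the phosphatase Wip1, which removes activating phosphates from p53 and from the kinases upstream of it. Its signals were 766, 628 and 583 in KO paraquat against 434, 386 and 402 in KO sham, and 697, 764 and 759 in wt paraquat against 295, 311 and 323 in wt sham. The paraquat arrays lay above the sham arrays in each genotype without overlap, and the KO sham arrays lay above the wt sham arrays. The rise was 1.61-fold in KO (0.69 ± 0.10, adjusted p = 0.000182) and 2.39-fold in wt (1.26 ± 0.10, adjusted p = 6.77e-07). Ccng1, cyclin G1, which directs a phosphatase to Mdm2, rose by log2 0.69 in KO and 0.99 in wt.

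Of the 5 members that act in arrest and mitosis, 3 rose in both genotypes (Plk3, Btg2, Psrc1). Plk3, a stress-activated polo-like kinase, had signals of 1611, 1644 and 1316 in KO paraquat against 500, 455 and 549 in KO sham, and of 2211, 2265 and 2210 in wt paraquat against 736, 1236 and 922 in wt sham. The groups did not overlap in either genotype, and the wt arrays were above the KO arrays in both treatments. Plk3 rose 3.03-fold in KO (1.60 ± 0.15, adjusted p = 5.65e-06) and 2.36-fold in wt (1.24 ± 0.15, adjusted p = 3.42e-05). Btg2, an antiproliferative protein of mRNA decay, rose by 0.61 in KO and 0.58 in wt, and Psrc1, a microtubule-binding protein of the spindle, by 0.38 in KO and 0.74 in wt. The Psrc1 call in KO was lost without KO sham 3 (0.28, adjusted p = 0.0578) or KO paraquat 1 (0.32, adjusted p = 0.0592). Plk2, a related kinase of centriole duplication, had changes of 0.12 in KO (adjusted p = 0.25) and -0.06 in wt (adjusted p = 0.637).

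Ckap2, a microtubule-associated protein of the mitotic spindle, moved in opposite directions in the genotypes. Its signals were 303, 238 and 379 in KO paraquat against 458, 489 and 485 in KO sham, and 250, 290 and 254 in wt paraquat against 228, 141 and 187 in wt sham. KO sham was the highest group and wt sham the lowest, and the paraquat groups overlapped. Ckap2 fell by 0.66 ± 0.17 in KO (adjusted p = 0.0109) and rose by 0.54 ± 0.17 in wt (adjusted p = 0.0315). The KO call was lost without KO paraquat 2 (-0.49, adjusted p = 0.0561). The wt call was lost without wt sham 2 (0.35, adjusted p = 0.139), wt sham 3 (0.56, adjusted p = 0.0649), or wt paraquat 1, 2 or 3 (0.58, 0.47 and 0.57; adjusted p = 0.0532, 0.109 and 0.0594).

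Among 10 members of the death receptor and apoptosis group, 8 rose in KO and 8 in wt, with medians of 0.69 and 0.61. Of the receptors, Eda2r, which binds an ectodysplasin, had signals of 418, 348 and 394 in KO paraquat against 185, 161 and 154 in KO sham, and of 414, 428 and 419 in wt paraquat against 204, 329 and 223 in wt sham. The paraquat arrays were above the sham arrays in both genotypes, with wt sham 2 the highest sham array. Eda2r rose by 1.21 ± 0.15 in KO (adjusted p = 3.79e-05) and 0.77 ± 0.15 in wt (adjusted p = 0.00121). Tnfrsf10b, the TRAIL receptor, rose by 0.75 in KO and 0.70 in wt. Fas, the receptor for Fas ligand, rose in wt (0.78 ± 0.15, adjusted p = 0.00134). In KO its change was 0.24 ± 0.15 (adjusted p = 0.308), and the difference between the responses, -0.55 ± 0.22, did not pass (adjusted p = 0.233).

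Trp53inp1, a stress-induced cofactor of p53 that also acts in autophagy, had signals of 2750, 2780 and 2763 in KO paraquat against 1122, 1241 and 1144 in KO sham, and of 2464, 2447 and 2712 in wt paraquat against 1405, 1693 and 1535 in wt sham. KO arrays lay above wt arrays under paraquat and below them in sham, without overlap. It rose 2.37-fold in KO (1.24 ± 0.09, adjusted p = 3.84e-07) and 1.65-fold in wt (0.72 ± 0.09, adjusted p = 2.35e-05).

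Zmat3, an RNA-binding zinc finger protein of the p53 tumour-suppressor response, had signals of 1143, 1044 and 1031 in KO paraquat against 512, 560 and 587 in KO sham, and of 1015, 1026 and 1077 in wt paraquat against 729, 868 and 810 in wt sham. The paraquat groups overlapped between genotypes, and all KO sham arrays were below all wt sham arrays. Zmat3 rose by 0.96 ± 0.09 in KO (adjusted p = 4.14e-06) and by 0.38 ± 0.09 in wt (adjusted p = 0.00502).

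Ei24, an endoplasmic reticulum membrane protein, rose by 0.70 in KO and 0.88 in wt, Phlda3, which restrains Akt at the membrane, by 0.68 in KO and 0.46 in wt, and Pidd1, a scaffold for caspase activation, by 0.47 in KO and 0.53 in wt. Aen, an apoptosis-enhancing nuclease, passed in KO (0.38 ± 0.12, adjusted p = 0.0276), with -0.03 ± 0.12 in wt (adjusted p = 0.903) and a difference of 0.41 ± 0.17 that did not pass (adjusted p = 0.25). Its KO call was lost without KO sham 2 or 3, or KO paraquat 1 or 2 (0.33, 0.38, 0.34 and 0.37; adjusted p = 0.0982, 0.067, 0.096 and 0.0731). Perp, a tetraspan protein of desmosomes that p63 also controls in skin, ranged from 7310 to 8160 over all arrays, with changes of 0.00 in KO (adjusted p = 1) and -0.04 in wt (adjusted p = 0.77).

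Of 4 members that act in DNA repair and nucleotide supply, Polk and Ercc5 rose in both genotypes. Polk, a polymerase that copies past damaged bases, rose by 0.63 in KO and 0.72 in wt, and Ercc5, a nuclease of nucleotide excision repair, by 0.58 in KO and 0.74 in wt. Rrm2b, a subunit of ribonucleotide reductase that p53 induces, rose in KO (0.42 ± 0.12, adjusted p = 0.0228) and had a change of 0.14 in wt (adjusted p = 0.487). That call was lost without KO sham 1 or 3, or KO paraquat 1 or 3 (0.33, 0.40, 0.42 and 0.36; adjusted p = 0.095, 0.0676, 0.0579 and 0.089). Xpc, which finds distorted DNA for excision repair, fell by 0.52 ± 0.14 in wt (adjusted p = 0.00975) with a change of -0.05 in KO (adjusted p = 0.835). Without wt paraquat 1 the change of Xpc in wt was -0.39 (adjusted p = 0.0502).

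Of the 5 redox and metabolism members, 4 rose in KO and 2 in wt. Dcxr, a reductase of dicarbonyls and of L-xylulose, had signals of 458, 438 and 449 in KO paraquat against 204, 182 and 160 in KO sham, and of 434, 418 and 472 in wt paraquat against 151, 166 and 164 in wt sham. The treatments were far apart and the genotypes overlapped. Dcxr rose 2.48-fold in KO (1.31 ± 0.09, adjusted p = 5.23e-07) and 2.75-fold in wt (1.46 ± 0.09, adjusted p = 9.6e-08). Ddit4l, an inhibitor of mTOR signalling, had signals of 204, 180 and 226 in KO paraquat against 88, 73 and 69 in KO sham, and of 192, 191 and 197 in wt paraquat against 65, 79 and 67 in wt sham. Again every paraquat array was above every sham array. Ddit4l rose by 1.41 ± 0.11 in KO (adjusted p = 1.34e-06) and 1.46 ± 0.11 in wt (adjusted p = 4.8e-07).

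The sestrins Sesn1 and Sesn2 encode proteins that sense amino acids and restrain mTOR. Sesn2 had signals of 668, 664 and 581 in KO paraquat against 256, 284 and 265 in KO sham, and of 635, 647 and 655 in wt paraquat against 536, 663 and 677 in wt sham. KO sham stood alone at the bottom, and the other groups overlapped. Sesn2 rose 2.37-fold in KO (1.25 ± 0.10, adjusted p = 1.19e-06), with a change of 0.05 ± 0.10 in wt (adjusted p = 0.757). Sesn1 had changes of -0.28 in KO (adjusted p = 0.185) and 0.14 in wt (adjusted p = 0.561), and its KO change passed without wt sham 2 (-0.28, adjusted p = 0.0308). Tigar, a phosphatase that lowers glycolytic flux, rose by 0.25 ± 0.09 in KO (adjusted p = 0.0444) and had a change of 0.15 in wt (adjusted p = 0.248). The Tigar call was lost in 9 of the 12 fits that each left out an array, over which the change was 0.21 to 0.33 and the adjusted p 0.021 to 0.152. Those 9 left out KO sham 1, 2 or 3, KO paraquat 2 or 3, wt sham 1, or any wt paraquat array.

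Both secreted or surface members rose in both genotypes. Cd80, a costimulatory ligand for T cells that is best known from antigen-presenting cells, had signals of 923, 838 and 881 in KO paraquat against 353, 390 and 314 in KO sham, and of 842, 947 and 927 in wt paraquat against 185, 136 and 180 in wt sham. The paraquat groups overlapped, and the KO sham arrays were all above the wt sham arrays. Cd80 rose 2.51-fold in KO (1.33 ± 0.12, adjusted p = 3.46e-06) and 5.47-fold in wt (2.45 ± 0.12, adjusted p = 1.15e-08), the largest rise of any member in wt. Sulf2, an enzyme that removes sulfate from heparan sulfate outside the cell, rose by 0.90 in KO and 0.49 in wt.

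Leukocytes and Langerhans cells also carry Cd80 in skin, and their markers were measured beside it. The 6 measured markers summed to 186 to 194 in KO paraquat against 170 to 185 in KO sham, and to 210 to 222 in wt paraquat against 177 to 193 in wt sham. Of the 6, Itgam, an integrin of myeloid cells, rose in KO (0.38) and in wt (0.41). Csf1r, a receptor of macrophages, rose in wt (0.35). Over all genes 14.5% rose in KO and 14.9% in wt. In sham 0 of the 6 were higher in KO and 1 lower, against 4.58% and 5.67% of all genes. Ptprc, the pan-leukocyte phosphatase CD45, had signals of 13 to 21 over all arrays and H2-Aa, an antigen-presenting molecule, 14 to 23, both below the array medians of 42 to 45. Cd207, the marker of Langerhans cells, had 50 to 63, above those medians. The part of such cells in the Cd80 result was not tested.

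**Figure D2:**
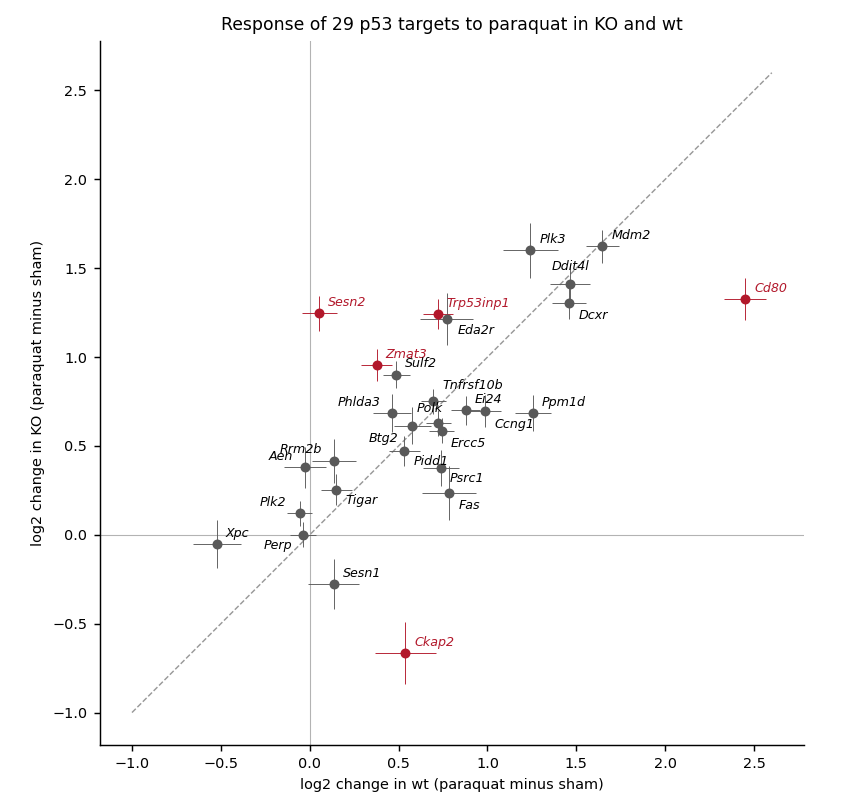
Log2 change under paraquat in KO (y axis) against that in wt (x axis) for the 29 members, with SE bars; the dashed line marks equal responses and red marks the 5 members whose responses differed at an adjusted p under 0.05. Mdm2, Ddit4l and Dcxr lie close to the line, Sesn2 above it at 1.25 against 0.05, and Cd80 below it at 1.33 against 2.45.

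In sham cultures, KO and wt keratinocytes already differed in many of these genes. Of the 29 members 7 were higher in KO and 6 lower, with 10.2% of all genes called, 4.58% higher and 5.67% lower. The members' median was -0.04 and that of all genes -0.01. Those higher in KO were Ckap2 (1.39 ± 0.17, adjusted p = 0.000327), Cd80 (1.08 ± 0.12, adjusted p = 0.000159), Fas (0.70), Sesn1 (0.56), Ppm1d (0.39), Psrc1 (0.35) and Ccng1 (0.32). Those lower in KO were Sesn2 (-1.21 ± 0.10, adjusted p = 1.51e-05), Plk3 (-0.92 ± 0.15, adjusted p = 0.00226), Eda2r (-0.57), Zmat3 (-0.54), Trp53inp1 (-0.40) and Sulf2 (-0.27). Mdm2 differed by -0.06 ± 0.09 (adjusted p = 0.791). The calls ran in both directions, and Mdm2 was not among them.

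The calls on Ckap2, Cd80, Fas, Sesn2, Plk3, Zmat3 and Trp53inp1 passed in each of the 12 fits that left out an array. Fitted on the sham arrays alone, Fas (adjusted p = 0.0738) and Trp53inp1 (adjusted p = 0.0679) missed the threshold, and Trp53inp1 also missed it without both wt sham 2 and KO paraquat 3 (-0.33, adjusted p = 0.0549). Without wt sham 1, Aen (-0.50, adjusted p = 0.0102) and Ei24 (0.33, adjusted p = 0.0276) passed as well. Without wt sham 2 the differences were 0.35 for Sesn1 (adjusted p = 0.053) and -0.36 for Eda2r (adjusted p = 0.0678), both short of the threshold. Those calls were also lost without KO sham 2 or 3, and that on Sesn1 without KO sham 1 (adjusted p = 0.0884 and 0.0929 for Eda2r, 0.0547, 0.0702 and 0.0745 for Sesn1). The call on Ppm1d was lost without wt sham 1 or 2 or KO sham 1 or 3 (0.36, 0.40, 0.35 and 0.40; adjusted p = 0.0705, 0.0673, 0.0867 and 0.0588). The call on Ccng1 (0.25 to 0.39, highest adjusted p = 0.141) was lost without any array other than KO sham 3 and KO paraquat 1. That on Psrc1 (0.28 to 0.45, highest adjusted p = 0.16) was lost without any array other than KO sham 3 and KO paraquat 1 and 2. That on Sulf2 (-0.29 to -0.25, highest adjusted p = 0.0965) was lost without any array other than wt paraquat 3 and KO paraquat 3.

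Under paraquat the levels of most of these genes, like those of genes in general, lay close together in KO and wt. In limma 0 of the 29 members passed between KO and wt, with 0.55% of all genes called. At an unadjusted p under 0.05 were 1 member and 2448 of the 22180 genes. That member was Plk3, at 1611, 1644 and 1316 in KO paraquat against 2211, 2265 and 2210 in wt paraquat, a difference of -0.56 ± 0.15 (unadjusted p = 0.00325, adjusted p = 0.159). Its arrays did not overlap. The size of the KO minus wt difference had a median over the 29 members of 0.07 under paraquat and 0.27 in sham, against 0.09 and 0.12 over all genes. For 28 of the 29 members the 95% confidence interval of the difference under paraquat lay within 1.5-fold in either direction. The bounds reached -0.89 for Plk3 and 0.57 for Xpc.

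**Figure D3:**
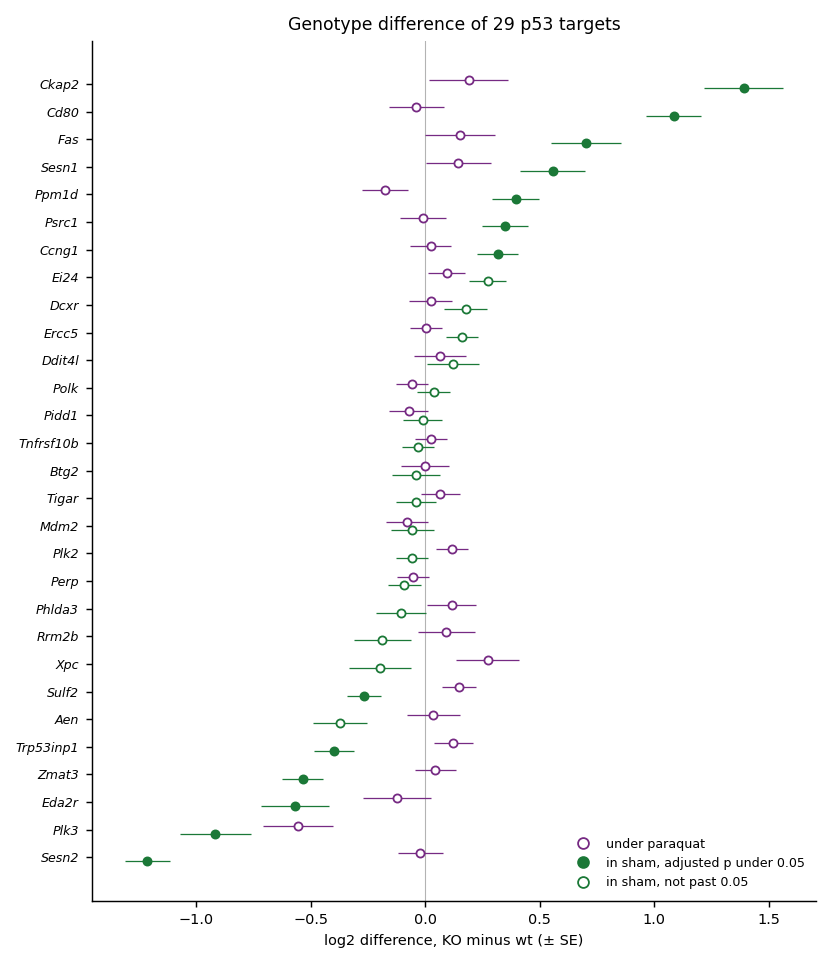
Difference between KO and wt (log2, KO minus wt, x axis) for each of the 29 members (y axis, ordered by the sham difference), under paraquat (purple) and in sham (green), with SE bars; filled points have an adjusted p under 0.05. The sham values run from -1.21 (Sesn2) to 1.39 (Ckap2), and 0 of the paraquat values is filled.

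The difference between the responses, KO minus wt, was tested in the same fit and uses the same sham arrays as the comparison in sham cultures. It passed for 5 members, against 2.29% of all genes called. At an unadjusted p under 0.05 were 12 members and 3376 of the 22180 genes. The response was larger in KO for Sesn2 (1.19 ± 0.14, adjusted p = 0.000745), Zmat3 (0.58 ± 0.12, adjusted p = 0.0307) and Trp53inp1 (0.52 ± 0.12, adjusted p = 0.0441). It was lower in KO for Cd80 (-1.12 ± 0.17, adjusted p = 0.00413) and Ckap2 (-1.20 ± 0.24, adjusted p = 0.0236). For each of the 5, the KO and wt means differed in sham and were not called different under paraquat.

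The calls on Sesn2 (1.13 to 1.30) and Cd80 (-1.20 to -0.98) passed without any 1 array. That on Ckap2 (-1.37 to -1.02, highest adjusted p = 0.0654) was lost without wt sham 3, KO sham 2 or 3, wt paraquat 1 or 2, or KO paraquat 1 or 2. That on Zmat3 (0.52 to 0.65, highest adjusted p = 0.0789) was lost without any array other than wt sham 1 and KO sham 3, and that on Trp53inp1 (0.45 to 0.59, highest adjusted p = 0.111) without any other than wt sham 1. Without KO paraquat 1 the difference in Ppm1d passed (-0.68, adjusted p = 0.0218), against -0.57 and an adjusted p of 0.0585 with all arrays.

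Other genes of cell division fell with Ckap2 in KO, while in wt Ckap2 rose and 8 of them fell. The 15 cell division genes, which p53 is known to repress through p21 and the DREAM complex, had mean log2 signals of 6.92, 6.89 and 7.30 in KO paraquat against 8.88, 8.84 and 8.87 in KO sham, and of 6.80, 6.72 and 6.62 in wt paraquat against 8.03, 6.72 and 7.67 in wt sham. They were highest in KO sham, and wt sham 2 was level with wt paraquat. Under paraquat all 15 fell in KO and 8 fell in wt (13 without wt sham 2), among them Mki67, the proliferation antigen (-3.03 in KO, -2.17 in wt), and Top2a, a topoisomerase of replicating cells (-2.15 in KO, -1.15 in wt). Over all genes 12.6% fell in KO and 14.3% in wt. In sham all 15 were higher in KO, against 4.58% of all genes. Under paraquat 0 of 15 passed between the genotypes in limma, with 1 at an unadjusted p under 0.05, against 2448 of 22180 genes. The responses differed in 2 of the 15, both lower in KO, and in 2 without wt sham 2, 0 without KO paraquat 3 and 4 without both arrays. With all arrays, 14 of the 15 were at an unadjusted p under 0.05, against 3376 of 22180 genes. In wt 0 of the 15 rose. The wt call on Ckap2 was lost without wt sham 2 (0.35, adjusted p = 0.139), wt sham 3 or any wt paraquat array. The part of the 15 genes in the Ckap2 result was not tested.

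Sesn2, which ATF4 also induces, lay beside 10 genes of the integrated stress response, the pathway that slows translation and activates ATF4. Their mean log2 signals were 8.72, 8.66 and 8.61 in KO paraquat against 8.54, 8.44 and 8.52 in KO sham, and 8.76, 8.61 and 8.69 in wt paraquat against 9.35, 9.65 and 9.55 in wt sham. The wt sham arrays were the highest. Under paraquat 4 of the 10 rose and 2 fell in KO (median 0.26), where Sesn2 rose by 1.25, and 1 rose and 8 fell in wt (median -0.84), where Sesn2 had a change of 0.05. In sham 9 of the 10 were lower in KO, including Trib3, a pseudokinase induced by ATF4 (-2.22 ± 0.10, adjusted p = 6.44e-08), and Slc7a11, the cystine transporter (-1.35 ± 0.11). The response differed in 6 of the 10, higher in KO. Over all genes 27.1% were called under paraquat in KO and 29.2% in wt. In sham 5.67% of all genes were lower in KO, and the response differed in 2.29%. The part of the 10 genes in the Sesn2 result was not tested.

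**Figure D4:**
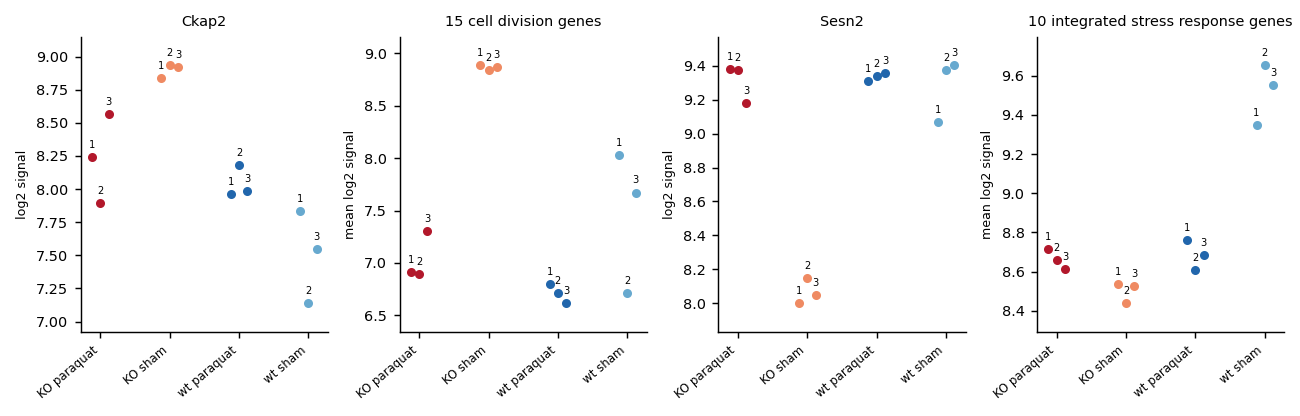
Log2 signal (y axis) in each array of Ckap2, the mean of 15 cell division genes, Sesn2 and the mean of 10 integrated stress response genes, by group (x axis); numbers beside the points are replicates. The cell division mean is 6.72 in wt sham 2, where wt sham 1 and 3 have 8.03 and 7.67, and Sesn2 is lowest in KO sham.

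Further p53 targets outside the list of 32, also chosen with earlier results of these data known, were counted in the same way. Of 15 measured, 11 rose and 1 fell in KO, and 10 rose and 3 fell in wt (1 fell without wt sham 2). Those with the smallest p included Epha2, an ephrin receptor (1.62 in KO, 1.75 in wt), Abhd4, a lipase (1.31 in KO, 1.36 in wt), Slc19a2, a thiamine transporter (0.90 in KO, 1.02 in wt), and Apaf1, the core of the apoptosome (0.82 in KO, 1.11 in wt). Cdkn1a, the cyclin-dependent kinase inhibitor p21, had signals of 7285, 6839 and 7215 in KO paraquat against 3972, 3431 and 3206 in KO sham, and of 7381, 7100 and 7290 in wt paraquat against 4226, 5116 and 4207 in wt sham. Its paraquat arrays were above its sham arrays in both genotypes, with rises of 1.01 ± 0.10 in KO (adjusted p = 6.22e-06) and 0.69 ± 0.10 in wt (adjusted p = 0.000115). Notch1, a receptor of keratinocyte differentiation, fell by 0.60 in KO and by 0.70 in wt. Over all genes 14.5% rose and 12.6% fell in KO, and 14.9% rose and 14.3% fell in wt.

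Between the genotypes in sham, 3 of the 15 were lower in KO, namely Bbc3, the pro-apoptotic protein Puma (-0.60), Prkab1, a subunit of AMP-activated kinase (-0.42), and Cdkn1a (-0.35). Under paraquat 0 of the 15 passed, and 0 were at an unadjusted p under 0.05 in limma, against 2448 of 22180 genes. The response differed in Bbc3 (0.53 ± 0.11, adjusted p = 0.0246), whose signals of 41 to 70 are close to the array medians. Without KO paraquat 3, 0 of the 15 passed in that comparison. Over all genes 5.67% were lower in KO in sham, and the response differed in 2.29%.

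Regulators that act on p53 moved in both directions. Of 23 measured, 4 rose and 6 fell in KO, and 5 rose and 8 fell in wt, with medians of 0.01 and -0.04. Over all genes 14.5% rose and 12.6% fell in KO, and 14.9% rose and 14.3% fell in wt. Pml, which gathers p53 and its modifiers in nuclear bodies, rose (1.06 in KO, 1.23 in wt), as did Ep300, an acetyltransferase that activates p53 (0.72 in KO, 0.68 in wt). Of the kinases that signal DNA damage, Atm (-1.07 in KO, -0.81 in wt), Prkdc (-1.05 in KO, -0.92 in wt) and Chek1 (-1.11 in KO, -0.73 in wt) fell. Mdm4, the inhibitory partner of Mdm2, had changes of 0.04 in KO (adjusted p = 0.879) and -0.01 in wt (adjusted p = 0.98). In sham 2 regulators were higher in KO (Atm, 0.33; Chek1, 0.67) and 3 lower. Without wt sham 2 these counts were 0 higher and 1 lower. With all arrays 4.58% of all genes were higher in KO sham and 5.67% lower. Under paraquat 0 of the 23 passed between the genotypes, with 4 at an unadjusted p under 0.05 in limma. Of all 22180 genes, 0.55% passed and 2448 were at an unadjusted p under 0.05.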

How the data were processed

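Total RNA was labelled with biotin and hybridised to Affymetrix arrays, 12 in all. The deposited intensity of each probe set was made by the authors with RMA. Per the submitters' processing notes, the software was Affymetrix Expression Console, version 1.3.1.187. The values are whole numbers from 3 to 17695 with array medians of 42 to 45. The plan assumed a log2 table, but these are linear signals, so their log2 was taken. RMA has no zero and rounding makes dim genes coarse. The number of arrays limits the precision. Of 41345 probe sets, 23521 carried 1 gene symbol, 1814 several and 16010 none in the platform annotation, which can be old. The probe set with the highest mean stood for a gene, giving 22180 genes, and dim genes were kept.

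Means of the 4 groups were estimated together by lmFit and eBayes of limma 3.58.1, run in R 4.3.3, with 2-sided moderated tests and Benjamini-Hochberg adjustment over all 22180 genes. The threshold was an adjusted p of 0.05. SE comes from the fit and SD from the 3 arrays of a group. The method was tested on simulated arrays. The members and gene lists were chosen with earlier results of these data known. All members are described, with values by array for those called with a log2 change of at least 1 in size or in the difference between responses, and up to 4 further genes per list.

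Alternatives were a second quantile normalization, median centring, a filter on dim genes, the mean over probe sets, a variance trend, array weights, the replicate number as a block, 16 added before the log2, a test against 1.5-fold, the arrays of the groups compared, leaving out each array, and a fit without both wt sham 2 and KO paraquat 3.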

Additional observations from a re-analysis of the deposited data

Results flagged for a closer look

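The paraquat response differed between KO and wt, by the test of the difference itself, in 5 p53 targets. The KO minus wt differences in log2 response were 1.19 for Sesn2, 0.58 for Zmat3, 0.52 for Trp53inp1, -1.12 for Cd80 and -1.20 for Ckap2. In the 12 fits that each left out an array, the calls on Sesn2 and Cd80 always passed, that on Ckap2 was lost in 7, that on Zmat3 in 10 and that on Trp53inp1 in 11, and 2 to 5 members were called. A test against at least 1.5-fold called 0. Groups of 3 arrays are too small for the check for a sample far from the others, which was not run.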

How the results depend on the processing

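Of 3306 member values under the alternatives, 3111 kept their side of the threshold. Of the others, 175 lost a call, 20 gained a call and 0 calls reversed. A change of sign between values that both missed the threshold was counted as kept. Leaving out each array in turn gave 20 to 25 members called under paraquat in KO, 20 to 22 in wt, 7 to 12 between KO and wt in sham, 0 between them under paraquat, and 2 to 5 in the difference between responses. With all arrays these were 24, 22, 13, 0 and 5. A test against a change of at least 1.5-fold called 10 in KO, 8 in wt, 1 in sham (Sesn2) and 0 in the difference. Fitting only the arrays of the groups compared called 6 in sham. A fit without both wt sham 2 and KO paraquat 3 called 6 in sham and 3 in the difference. The fits on the groups compared and without both arrays used fewer arrays, and the cause of the lower counts was not tested.

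The replicate number as a block called 23 in KO, 22 in wt, 11 in sham, 0 under paraquat and 4 in the difference, and lost Tigar in KO (adjusted p = 0.073), Psrc1 and Sulf2 in sham (0.0732 and 0.0675) and Trp53inp1 in the difference (0.059). Correlations of same-numbered samples were -0.07 to 0.09, with 0 of 18 over 0.1, against -0.13 to 0.15 for the others. The own number was best of 3 in 16 of 36 comparisons. With group means of 3 arrays, these values cannot tell whether same-numbered samples shared an animal or culture day.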
